A study of Mus musculus with 240 samples.

Results

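The 9 genes described here encode the pore-forming subunits of the AMPA receptors (Gria1, Gria2, Gria3 and Gria4) and of the kainate receptors (Grik1, Grik2, Grik3, Grik4 and Grik5). They were taken by name from the count table, as the complete subunit families, and matched by gene identifier to the table of normalised values. The rule uses no measured value, although the families were picked with earlier results of these data known. All 9 were among the 14785 genes that the authors kept of 55414 counted, so none was lost to the filter on low counts. They were followed in prelimbic cortex (PrL), central amygdala (CeA) and the core of the nucleus accumbens (NAcc) in the 8 founder strains of the Collaborative Cross, a mouse population bred from these inbred lines. The wild-derived strains were PWK/PhJ (PWK), WSB/EiJ (WSB) and CAST/EiJ (CAST). The laboratory strains were A/J (AJ), NZO/HILtJ (NZO), C57BL/6J (B6), 129S1/SvImJ (S129) and NOD. The last is written NOD/LtJ in the series record and NOD/ShiLtJ in the introduction of the study. The 48 mice (3 females and 3 males of each strain) were naive, with no drug or ethanol, and each gave its 3 regions. The series record gives their age as 8 weeks, whereas the methods of the study give an older adult age, so the age is not settled here. B6 and PWK were studied as strains with a high preference for ethanol and the other 6 as strains with a low preference, whose mean is called Low_Average below.

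AMPA receptors carry most of the fast excitatory current at synapses of the brain, and assemble as tetramers of GluA subunits. Those that hold an edited GluA2 subunit (from Gria2) pass almost no calcium, whereas those without it do. Kainate receptors assemble from GluK1 to GluK3 (from Grik1, Grik2 and Grik3), which can form channels on their own, and GluK4 and GluK5 (from Grik4 and Grik5), which need a partner of the first kind; they act on both sides of the synapse and on interneurons. Glutamate released from cortical and amygdalar neurons onto the spiny projection neurons of the accumbens is received largely by these receptors.

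The channel pore of every subunit holds a position, the Q/R site, at which the genome encodes glutamine. In Gria2 almost all transcripts are edited there to arginine, and in Grik1 and Grik2 part of them. The reference coding sequence around the site is shown for the 6 genes on which the results turn, because counts per gene do not tell edited from unedited transcripts. The codon of the site is in capitals.
Gria1: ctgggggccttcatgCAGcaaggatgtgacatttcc
Gria2: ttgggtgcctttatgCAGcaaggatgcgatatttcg
Gria3: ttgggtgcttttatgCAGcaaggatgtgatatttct
Grik1: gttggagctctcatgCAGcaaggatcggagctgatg
Grik2: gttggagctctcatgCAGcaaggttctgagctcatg
Grik4: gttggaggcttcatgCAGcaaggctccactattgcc

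The sequences are 36 bases each, from the mouse transcripts of GENCODE M21 on build GRCm38, written 5′ to 3′ on the coding strand. On that build the Gria1 window lies at chr11:57243079-57243114 on the plus strand and the Gria2 window at chr3:80706893-80706928 on the minus strand, both within coding exon 11 of 16. The Gria3 window lies at chrX:41610250-41610285 (plus strand, exon 11 of 16) and the Grik4 window at chr9:42547605-42547640 (minus strand, exon 14 of 19). The windows of Grik1 (codon at chr16:87940542-87940544, minus strand, exon 13 of 18) and Grik2 (codon at chr10:49244329-49244331, minus strand, exon 12 of 16) run across an exon junction. Gria2 and Gria3 differed at 3 of the 36 bases, Gria1 and Gria2 at 6, Grik1 and Grik2 at 3, and Gria2 and Grik2 at 14. The codon was CAG in 8 genes and CAA in Gria4.

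Poly(A) RNA was counted in 144 samples, and a library of each was used except the NAcc of B6 mouse 1, which the authors left out. The total count per library was 14942820 to 33951616, with a median of 24456928. Levels are given as CPM, counts scaled to 1e+06 per library, after TMM scaling, a normalisation that balances the bulk of the genes between libraries. Counts were high for most members: the lowest single count was 46, for Grik1 in a NZO NAcc library, and the highest 24303, for Gria1 in a WSB CeA library. The samples were hand-cut punches of frozen brain slices, so fewer cells of a type and less RNA per cell cannot be told apart in any of the values that follow.

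The punches were checked against cell type markers before the subunits were compared. Summed markers of cortical and amygdalar glutamatergic neurons (5 genes, of which Slc17a7 was the most abundant) had a median of 2670 CPM in PrL (1771 to 3174), 1184 CPM in CeA (20.1 to 2494) and 15.3 CPM in NAcc (2.24 to 1386). Summed markers of striatal projection neurons (7 genes, of which Ppp1r1b was the most abundant in CeA and NAcc) had a median of 3913 CPM in NAcc (402 to 8507), 1147 CPM in CeA (236 to 8654) and 235 CPM in PrL (164 to 2231). The 5 markers of central amygdala neurons summed to a median of 235 CPM in CeA, 107 CPM in NAcc and 31.2 CPM in PrL. Choroid plexus markers (3 genes) summed to 2.34 to 9212 CPM in CeA (median 16.45). They reached at most 17.3 CPM in NAcc and 8.33 CPM in PrL, and were not used to set libraries apart. No marker gene was at 0 in all libraries of a region. The order of the medians followed the region labels, but the CeA punches ran from nearly no glutamatergic markers to the levels of PrL, and the striatal ranges of all 3 regions overlapped.

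In 17 libraries (4 of CeA, 6 of NAcc and 7 of PrL) the sum of the glutamatergic or of the striatal markers lay, on the log2 scale, more than 1.5 interquartile ranges beyond the quartiles of its region. The CeA library of PWK mouse 48 held 20.1 CPM of the glutamatergic markers and its NAcc library 1386 CPM, against the usual order of the regions. AJ mouse 5 showed the same inversion, with 109 CPM in CeA and 511 CPM in NAcc. In PWK mouse 40 the striatal markers were inverted, with 2231 CPM in PrL and 587 CPM in NAcc. The markers of these libraries go against their region labels, so the labels or the placing of the punches may be wrong, which was not tested. They were kept under their labels in the levels and in the counts of mice, and the 20 regional differences called became 21 without the 17 libraries. In PrL, B6 mouse 25 (1771 CPM of glutamatergic and 541 CPM of striatal markers) and B6 mouse 33 (380 CPM of striatal markers) were among them. Summed markers of GABA neurons were 1547 and 1036 CPM in those B6 libraries, against a PrL median of 643 CPM. Values without the 17 libraries, an alternative chosen after the data were seen, are given beside several of the results.

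Gria1 was the most abundant member per kilobase of exon in all 3 regions, with medians of 132, 112 and 82.8 CPM per kb in CeA, NAcc and PrL. Grik5 was second (51.0, 46.8 and 53.8 CPM per kb), then Gria2 (41.6, 42.1 and 39.8 CPM per kb) and Grik1 last (3.21, 2.66 and 2.86 CPM per kb). The place of Gria2 depended on the length used, since its exons span 15548 bases and its coding part 2804. Per kilobase of coding sequence Gria2 was second in CeA and NAcc (231 and 233 CPM per kb) and first in PrL (221 CPM per kb), and Grik5 stood in place 5, 3 and 5. Among the AMPA subunits, Gria1 made up a median of 60.1% of the CPM per exon kb in CeA and 59.3% in NAcc, but 46.3% in PrL. Gria3 took the larger share in PrL, 20.5% against 13.1% in CeA and 10.3% in NAcc. Per kilobase of coding sequence the share of Gria1 was 43.1%, 41.9% and 31.0% in CeA, NAcc and PrL, and in PrL Gria2 had the larger share (37.9%). Among the kainate subunits Grik5 and Grik3 had the largest shares per exon kb in each region, with 55.3% and 28.5% in CeA. By coding length they stood level there, at 38.67% and 38.71%. The share of Grik2 was largest in NAcc by either length, at 12.1% per exon kb (7.75% in CeA and 5.46% in PrL) and 22.4% per coding kb (14.75% and 10.6%). The ratio of summed AMPA to summed kainate subunits per exon kb had a median of 2.52 in CeA, 2.08 in NAcc and 1.85 in PrL. Per coding kb it was 3.09, 2.55 and 2.54, so NAcc and PrL stood level by that length.

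**Figure D1:**
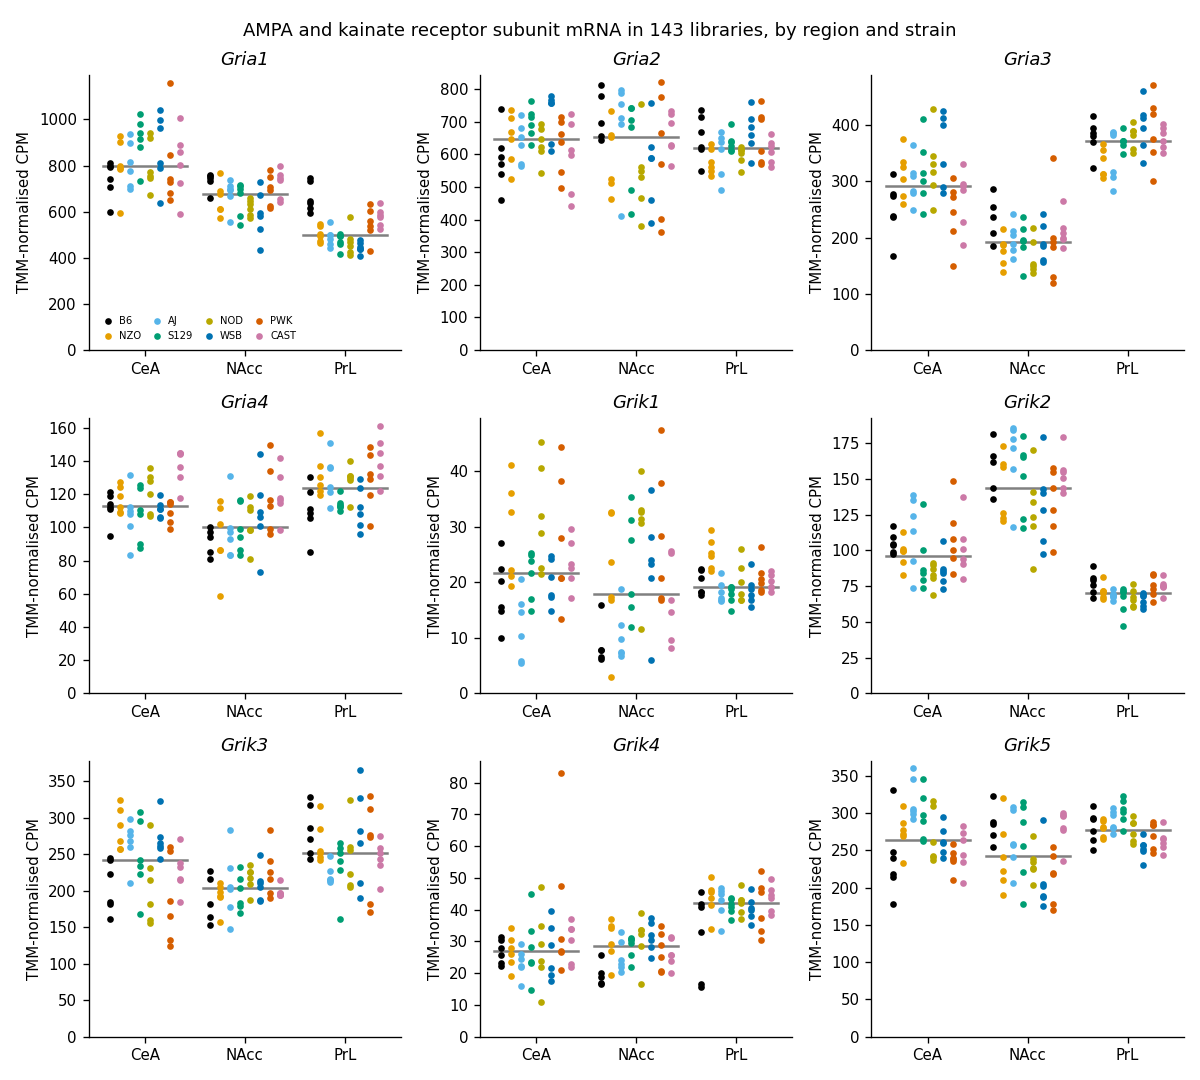
TMM-normalised CPM (vertical axes, linear, from 0) of the 9 subunit genes in the 3 regions, 1 point per library, coloured by strain, with grey bars at the region medians. Grik2 is highest in NAcc (median 144 CPM) and Gria3 in PrL (372 CPM), while Gria2 has similar medians in all regions (619 to 654 CPM).

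The subunits divided by region. Grik2 and Gria1 were lower in PrL than in NAcc, whereas Gria3, Gria4, Grik3, Grik4 and Grik5 were higher in PrL, and Gria2 differed between no regions beyond its spread. The median log2 difference over the 9 members was 0.21 for PrL against NAcc, 0.16 for CeA against NAcc and 0.06 for PrL against CeA, beside -0.03, -0.01 and -0.01 over all genes tested. Of the 9 members, 5 were called higher and 2 lower in PrL than in NAcc at an adjusted p below 0.05 (limma), where 38.4% of all genes tested were called higher and 44.1% lower. In CeA against NAcc, 6 were higher and 1 lower (33.2% and 35.9% of all genes). In PrL against CeA, 4 were higher and 2 lower (35.1% and 38.8% of all genes). All 20 called differences had the same sign within each of the 3 sequencing trays.

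Gria1, the subunit that makes up most AMPA receptors without GluA2, was 589 to 1156 CPM in CeA (median 799), 432 to 798 CPM in NAcc (median 676) and 409 to 748 CPM in PrL (median 500). The ranges overlapped, but within a mouse PrL exceeded CeA in 1 of 48 mice and NAcc in 2 of 47. The log2 difference was -0.65 (SE 0.04, adjusted p = 7.82e-35) for PrL against CeA, -0.36 (SE 0.04, adjusted p = 3.63e-17) for PrL against NAcc and 0.29 (SE 0.04, adjusted p = 5.46e-12) for CeA against NAcc. Within trays, PrL against NAcc ranged from -0.41 to -0.26.

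Gria2, whose edited form sets the calcium permeability of AMPA receptors, had medians of 647 CPM in CeA (442 to 778), 654 CPM in NAcc (363 to 821) and 619 CPM in PrL (492 to 764). Its log2 differences between regions were 0.03 (SE 0.04, PrL against NAcc), 0.06 (SE 0.04, CeA against NAcc) and -0.03 (SE 0.04, PrL against CeA), with adjusted p values from 0.212 to 0.567. The spread of the NAcc libraries was the widest.

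Gria3, an AMPA subunit encoded on the X chromosome, showed the opposite order to Gria1 in cortex. It had medians of 372 CPM in PrL (283 to 472), 292 CPM in CeA (149 to 429) and 193 CPM in NAcc (120 to 342). PrL was above NAcc in 47 of 47 mice, by 1.93-fold (log2 difference 0.95, SE 0.05, adjusted p = 1.77e-37). CeA was above NAcc in 44 of 47 mice (0.60, SE 0.05, adjusted p = 1.91e-22) and PrL above CeA in 41 of 48 (0.35, SE 0.05, adjusted p = 3.42e-10). Gria4, the AMPA subunit typical of interneurons and of early development, was 124 CPM in PrL (84.9 to 161), 113 CPM in CeA (83.1 to 145) and 100.4 CPM in NAcc (58.4 to 150). Its differences were smaller, with log2 values of 0.27, 0.16 and 0.11 for PrL against NAcc, CeA against NAcc and PrL against CeA (largest adjusted p 0.00639).

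Grik2, the kainate subunit GluK2, had the largest regional difference of the 9 genes. It was 87.1 to 186 CPM in NAcc (median 144), 68.6 to 148 CPM in CeA (median 96.0) and 47.2 to 89.1 CPM in PrL (median 70.4). No mouse of 47 had more Grik2 in PrL than in NAcc, and only the top of the PrL range touched the bottom of the NAcc range. The PrL level was 0.490 times that of NAcc (log2 difference -1.03, SE 0.04, adjusted p = 3.02e-49), with -1.06 to -1.003 within trays. The CeA level was 0.677 times that of NAcc (adjusted p = 1.01e-26) and the PrL level 0.723 times that of CeA (adjusted p = 1.72e-21).

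Grik4, one of the partners that raise the affinity of kainate receptors for glutamate, was the kainate gene with the clearest gain in cortex. It had medians of 42.0 CPM in PrL (15.6 to 52.2), 28.6 CPM in NAcc (16.6 to 38.8) and 26.8 CPM in CeA (10.9 to 83.1). PrL was 1.49-fold above NAcc (log2 difference 0.58, SE 0.07, adjusted p = 1.44e-11) and 1.48-fold above CeA (0.57, SE 0.07, adjusted p = 1.88e-11), while CeA and NAcc differed by 0.01 (SE 0.08, adjusted p = 0.893). The highest CeA value, 83.1 CPM, belonged to PWK mouse 40. Grik5, the other partner, was 278, 264 and 242 CPM in PrL, CeA and NAcc (medians), and Grik3 252, 243 and 204 CPM. Both were higher in PrL than in NAcc (0.18 and 0.30) and in CeA than in NAcc (0.12 and 0.19), with adjusted p values no larger than 0.00105. In PrL against CeA Grik3 was called at 0.11 (adjusted p = 0.0301) and Grik5 was not, at 0.06 (adjusted p = 0.12).

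Grik1, the kainate subunit known mostly from GABA interneurons, was the least abundant and, for its level, the most scattered in CeA and NAcc. It ranged from 5.45 to 45.2 CPM in CeA (median 21.6), from 2.86 to 47.3 CPM in NAcc (median 17.9) and only from 14.8 to 29.3 CPM in PrL (median 19.2). The CeA level was called above that of NAcc (log2 difference 0.30, SE 0.11, adjusted p = 0.00892), although it was higher in 26 of 47 mice. PrL against NAcc was not called with all libraries (0.21, adjusted p = 0.0784), but was called at 0.30 (adjusted p = 0.0242) without the 17 libraries. With means of cell type markers as covariates the direction of both differences was turned. These covariates were the mean log2 CPM of 3 marker lists, those of glutamatergic neurons, striatal projection neurons and oligodendrocytes.

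**Figure D2:**
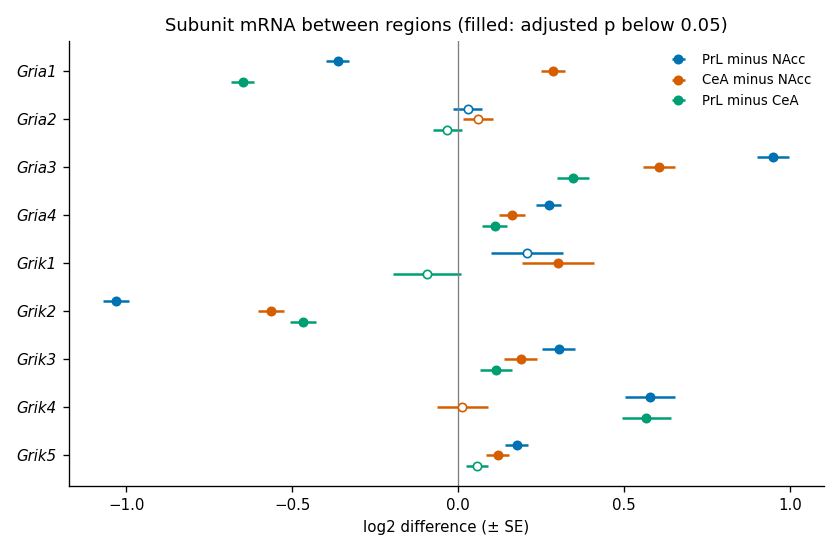
Log2 difference (horizontal axis) of each subunit gene between regions from limma, with bars of 1 standard error; filled points have an adjusted p below 0.05. Grik2 lies at -1.03 and Gria3 at 0.95 for PrL minus NAcc, and all 3 points of Gria2 lie beside 0.

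Marker levels moved with these regional differences. The 4 tested markers of glutamatergic neurons were higher in PrL than in NAcc and all 5 tested striatal markers were lower, as were the 3 markers of GABA neurons. All 5 interneuron markers were higher in PrL than in NAcc, with summed medians of 705 and 288 CPM. Both tested oligodendrocyte markers were lower, with summed medians (5 genes) of 1803 and 6529 CPM. In CeA against NAcc the 4 glutamatergic markers were higher, and the 5 striatal and 3 GABA markers lower. Both tested choroid plexus markers were higher there too. Of 5 central amygdala markers, 2 were higher and 1 lower in CeA than in NAcc. The marker means of 3 lists, which themselves differ between the regions, entered the model as covariates in another fit. In it 16 of the 27 differences were called in place of 20. The direction of Gria2, Gria4, Grik1 and Grik4 was turned there in some contrasts. How far the makeup of the punches set the regional levels was not tested beyond these values.

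The genes that act with the receptors were counted from lists of auxiliary and partner proteins, beside 38.4% of all genes called higher and 44.1% lower in PrL than in NAcc, 33.2% and 35.9% in CeA than in NAcc, and 35.1% and 38.8% in PrL than in CeA. Of 17 AMPA receptor auxiliary genes, 8 were higher and 5 lower in PrL than in NAcc, and 10 higher and 4 lower in CeA than in NAcc. Cnih3, a cornichon that slows AMPA receptor closing, was the most different of them, with log2 differences of 2.20 (SE 0.10) and 2.06 (SE 0.10). Cacng4, a TARP, was picked after its values were seen, as the gene of the list with the largest difference toward NAcc (-1.59, SE 0.05, for PrL against NAcc). In PrL against CeA, 7 were higher and 7 lower, with Shisa6, which holds AMPA receptors at the synapse, the most different (-1.69, SE 0.11). Of the 6 tested kainate receptor partners, 3 were higher and 3 lower in PrL than in NAcc. C1ql3, a secreted synapse organiser, stood at 4.59 (SE 0.28) for PrL against NAcc and at 4.005 (SE 0.28) for CeA against NAcc, whereas C1ql2 was the most different for PrL against CeA (-2.185, SE 0.23).

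The same shares of all genes stand beside the counts of the next lists. Of the 13 genes of anchoring, trafficking and RNA editing, 5 were higher and 3 lower in PrL than in NAcc, 4 higher and 5 lower in CeA than in NAcc, and 6 higher and 4 lower in PrL than in CeA. These counts include the RNA-editing enzymes Adarb1, which edits the Q/R site of Gria2 and was higher in PrL than in NAcc (0.18, SE 0.04, adjusted p = 0.00013), and Adar, which was lower (-0.135, SE 0.02, adjusted p = 3.22e-09). The anchor Akap5 was the most different in both contrasts with NAcc (-1.29, SE 0.10, and -0.86, SE 0.10), and Arc, an immediate early gene that drives AMPA receptor removal, in PrL against CeA (0.82, SE 0.10). Of the 8 tested NMDA and delta receptor subunits, 4 were higher and 3 lower in PrL than in NAcc. Grin2a, the NMDA subunit GluN2A, was the most different in all 3 contrasts (1.44, SE 0.06, for PrL against NAcc, 0.83, SE 0.06, for CeA against NAcc and 0.61, SE 0.06, for PrL against CeA). Across the means of the 24 strain and region groups, Grin2a was also among the genes most like Gria3 (Pearson r 0.980), after Ldha (0.984) and before Sv2b (0.978). Those most like Grik2 were Rarb (0.989), Drd1, a dopamine receptor of striatal projection neurons (0.982), and Prkch (0.978). These correlations over 24 group means share libraries and regional differences and carry no test.

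Among strains Grik1 varied the most of the members in CeA and NAcc. An F test over the 8 strains called 6 of the 9 members in CeA (Gria3, Gria4, Grik1, Grik2, Grik3 and Grik5), where 80.8% of all genes tested were called. In NAcc it called 4 (Gria1, Grik1, Grik4 and Grik5), against 76.0% of all genes, and in PrL 7 (all but Grik3 and Grik4), against 84.1%. Without the 17 libraries the counts were 5, 1 and 7, and in NAcc Grik4 remained the called member. The NAcc count was also 1 when the library that the authors left out was added, and 7 with the marker means as covariates. Of 252 pairwise contrasts of members in each region, 43 were called in CeA (17.1%), 24 in NAcc (9.52%) and 66 in PrL (26.2%), beside 28.9%, 26.0% and 33.1% of the contrasts of all genes. In NAcc 10 pairs were called with the added library and 69 with the marker covariates. The shares of all genes given here are those of the fit without either change. The SD of the 8 strain means had a median over members of 0.15, 0.15 and 0.11 (log2) in CeA, NAcc and PrL, and of 0.19, 0.19 and 0.16 over all genes tested. Grik1 stood at the 84.5th percentile of genes in CeA and the 90.9th in NAcc.

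When the strains were ordered by the mean level of each gene, none of 63 neighbouring pairs was called in CeA or NAcc and 3 of 63 in PrL. Neighbours in such an order are the closest pairs by construction. The share of such pairs called over all genes is not given, so these counts do not compare the members with other genes. Those 3 pairs were the gaps above and below which B6 or NZO stood apart, for Gria1, Grik4 and Grik1. A gene is called unique to a strain below where that strain differed from each of the other 7 in 1 direction. In PrL 3 members were unique to a strain, beside 27.0% of all genes tested. In CeA and NAcc none was, beside 19.2% and 17.7% of all genes.

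Gria1 was unique to B6 in PrL, where its level was 32.7% above the mean of the other 7 strains. The 6 B6 libraries held 593, 618, 636, 647, 734 and 748 CPM, and the other 42 PrL libraries 409 to 639 CPM (median 496). Of the B6 libraries, 3 stood above every other strain, and the highest pair were those of mice 25 and 33. The log2 difference was 0.41 (SE 0.05), with the weakest of the 7 contrasts against CAST (0.19, SE 0.07, adjusted p = 0.0264). CAST (mean 578 CPM) and PWK (548 CPM) were next in order and WSB was lowest (445 CPM). The difference was 0.28, 0.38 and 0.48 within the 3 trays. Without the libraries of mice 25 and 33, B6 remained highest with a difference of 0.34, but 6 of 7 contrasts were called (weakest adjusted p 0.205). Without all 17 libraries it was 0.32, with 5 of 7 contrasts called (weakest adjusted p 0.232). With the marker means as covariates it was 0.35, also with 5 of 7 contrasts called (weakest adjusted p 0.199).

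Grik4 was unique to B6 in PrL in the other direction, 27.3% below the mean of the other strains. The F test over strains was not called for it there (adjusted p = 0.0527). The B6 libraries held 45.4, 41.9, 40.9, 33.1, 16.5 and 15.6 CPM and the other 42 libraries 30.4 to 52.2 CPM (median 42.7). The last 2 B6 values were those of mice 25 and 33, whose marker sums stood apart, and the other 4 lay inside the range of the other strains. The log2 difference was -0.46 (SE 0.12, weakest adjusted p 0.0435), with -0.11, -0.60 and -0.78 within trays, of which the first holds neither mouse. Without those mice the difference was -0.07 and none of the 7 contrasts was called (weakest adjusted p 0.945), and without all 17 libraries it was -0.10, also with none. The edgeR and DESeq2 tests on all libraries called 4 of 7 contrasts each, as did the fit with no filter on low counts. With the marker means as covariates the difference was -0.11 and 2 of 7 contrasts were called.

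Grik1 was unique to NZO in PrL, 31.3% above the other strains. The NZO libraries held 22.1, 22.5, 24.65, 25.2, 27.2 and 29.3 CPM and the others 14.8 to 26.3 CPM (median 19.0), so the ranges overlapped and 2 NZO libraries stood above all others. The log2 difference was 0.39 (SE 0.07), with the weakest contrast against PWK (0.29, SE 0.09, adjusted p = 0.0146), and 0.35, 0.31 and 0.50 within trays. Without the 17 libraries, which include 1 NZO library, the difference was 0.38 and 6 of 7 contrasts were called (weakest adjusted p 0.0679). With both sequencing runs of trays 2 and 3 summed it was also 0.38 and 6 of 7 contrasts were called (weakest adjusted p 0.0795). The gene was thus not unique to NZO in either case. Tac2, one of the central amygdala markers, was also unique to NZO in PrL, where it was higher.

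**Figure D3:**
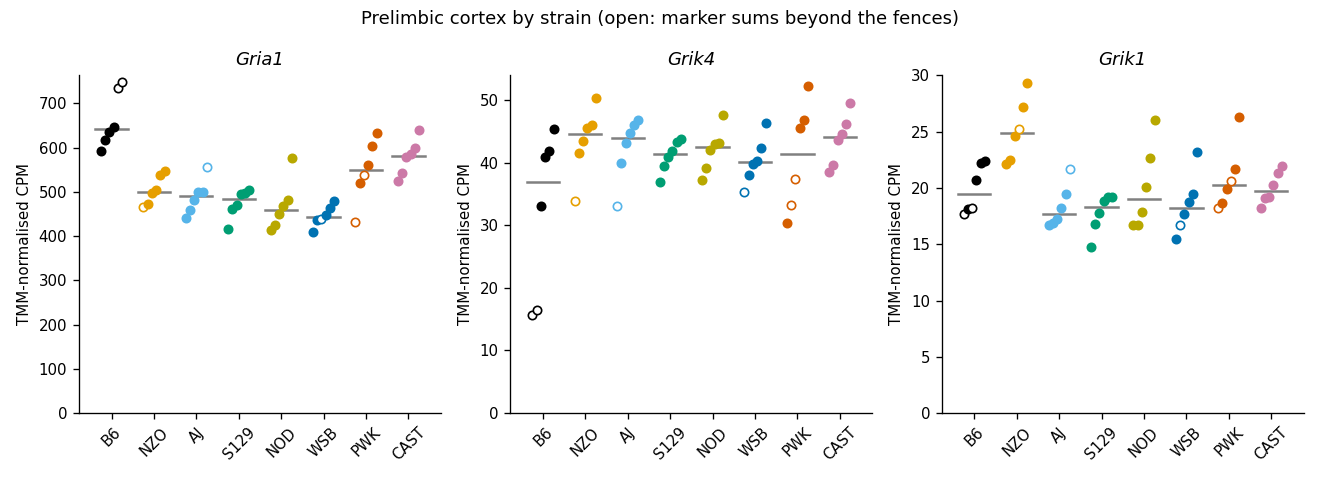
TMM-normalised CPM (vertical axes, linear, from 0) of Gria1, Grik4 and Grik1 in PrL, 1 point per library by strain, with bars at the medians; open points are libraries whose marker sums lay beyond 1.5 interquartile ranges. The 2 open B6 points are the highest for Gria1 (734 and 748 CPM) and the lowest for Grik4 (16.5 and 15.6 CPM).

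Grik1 varied most among strains in CeA and NAcc. In NAcc it was lowest in B6, at 6.26, 6.62, 7.87, 7.88 and 16.0 CPM, and in AJ, at 6.80 to 18.8 CPM (median 8.61), and highest in NOD, at 11.7 to 40.0 CPM (median 32.0). The B6 and NOD ranges overlapped through 1 library of each. The means of NOD and B6 differed by 3.35-fold, yet only 5 of 28 pairs were called, and the F test (adjusted p = 0.0149) was lost without the 17 libraries (adjusted p = 0.0844), with fewer samples in the fit. The difference of B6 from Low_Average was no smaller without them, at -1.45 in place of -1.13 (log2). In CeA it was lowest in AJ, at 5.45, 5.80, 10.4, 14.6, 16.1 and 20.6 CPM, with 6 of 7 contrasts called (log2 difference -1.07, SE 0.21, weakest adjusted p 0.0571). Striatal markers were highest where Grik1 was lowest. Their sum had a median of 4790 CPM in the AJ CeA libraries and of 473 to 2065 CPM in those of the other strains. In NAcc it was 6044 CPM in B6 and 2330 CPM in NOD, but 5642 CPM in CAST, whose median Grik1 was 15.7 CPM. PWK had 3841 CPM there, with a median Grik1 of 24.5 CPM. Of 5 tested striatal markers, the F test called 4 among strains in CeA and 1 in NAcc. Without the 17 libraries the AJ difference in CeA was -0.82, with 5 of 7 contrasts called (weakest adjusted p 0.447). With the marker means as covariates it was -0.68, with 4 of 7 contrasts called. The part of punch makeup in it was not tested further.

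**Figure D4:**
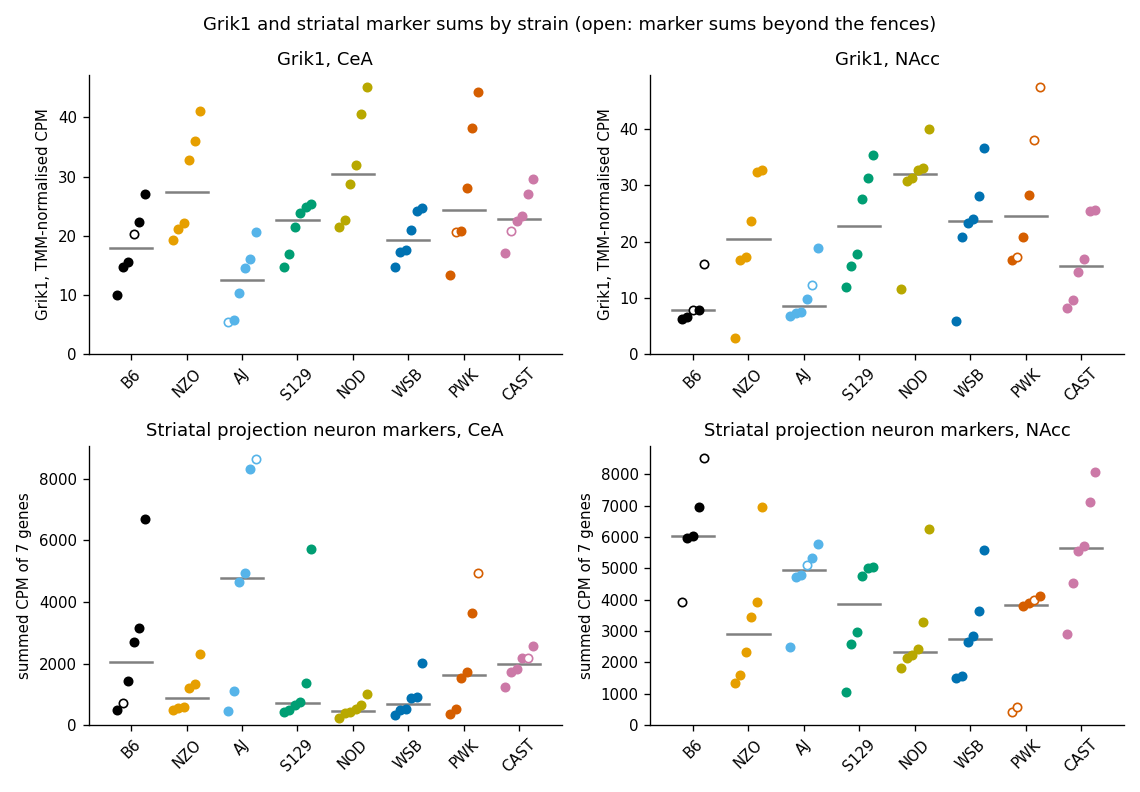
Grik1 (upper panels, TMM-normalised CPM) and the summed CPM of 7 striatal projection neuron markers (lower panels) by strain in CeA and NAcc, 1 point per library on linear axes from 0, with bars at the medians and open points for libraries with marker sums beyond the fences. AJ in CeA and B6 in NAcc have low Grik1 (medians 12.5 and 7.87 CPM) and high striatal sums (4790 and 6044 CPM).

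Other strain patterns fell short of all 7 contrasts. Gria4 was highest in CAST in all 3 regions, with means of 136, 120 and 141 CPM, and differed from 6 of the other 7 strains in CeA (log2 difference 0.28, SE 0.07, weakest adjusted p 0.147), and from 5 without the 17 libraries (0.25). CAST differed from 2 of the other 7 in NAcc, where the F test was not called (adjusted p = 0.0691), and from 3 in PrL. Grik4 in NAcc was lowest in B6, at 16.7, 16.8, 18.6, 19.9 and 25.7 CPM, against 16.6 to 38.8 CPM in the other strains, and differed from 6 of 7 (-0.56, SE 0.14, weakest adjusted p 0.0871). That count rested on single libraries: it was 3 without mouse 17 (-0.46), 4 without mouse 33 (-0.56) or mouse 9 (-0.52), 6 without mouse 41 (-0.60) and 7 without mouse 25 (-0.66). It was 3 with the library that the authors left out (-0.40), and 5 without the 17 libraries (-0.63). Grik3 in CeA ran from 187 CPM in PWK to 285 CPM in NZO (means, 1.52-fold). Gria3 in CeA ran from 244 CPM in PWK to 356 CPM in WSB (1.46-fold). The summed glutamatergic markers of CeA had medians of 1715 CPM in WSB, 1405 CPM in NZO and 964 CPM in PWK. They were lower still in AJ (628 CPM) and B6 (546 CPM), and their part in these levels was not tested. Grik5 in CeA was highest in AJ (318 CPM) and lowest in PWK and B6 (238 CPM each), with 9 of 28 pairs called.

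**Figure D5:**
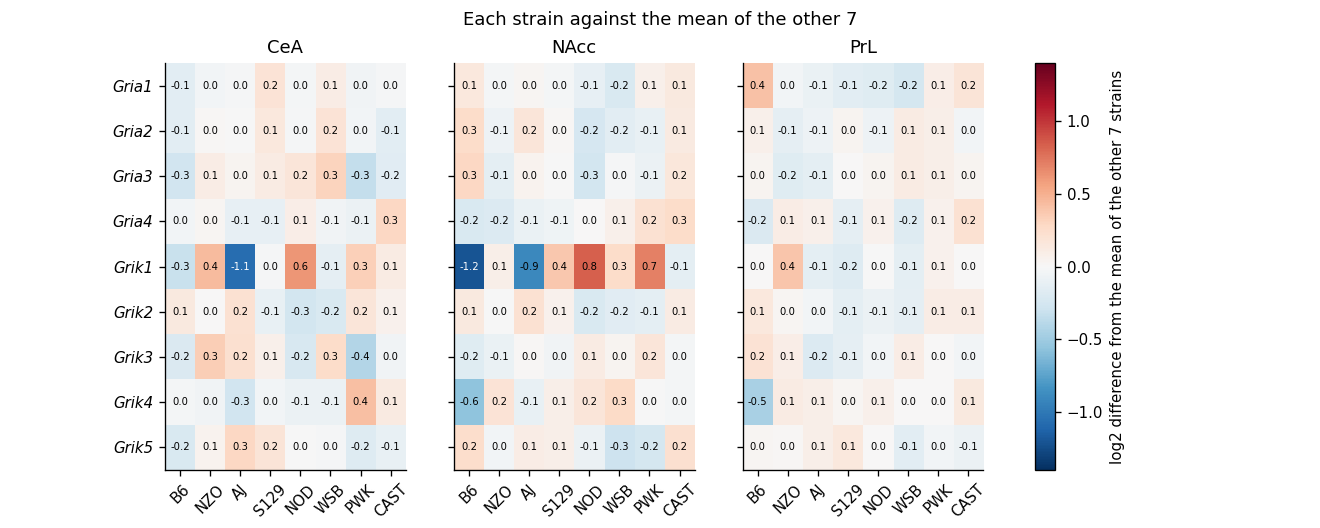
Log2 difference (colour scale and printed values) of each strain from the mean of the other 7 strains, for the 9 subunit genes (rows) in CeA, NAcc and PrL. The darkest cells are Grik1 in AJ in CeA (-1.07) and in B6 in NAcc (-1.21), and most other cells lie near 0.

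The strain differences of 5 members varied between regions by the test of strain against region (limma, 14 terms), beside 34.6% of all genes tested: Gria1 (adjusted p = 0.000843), Grik3 (0.0031), Grik5 (0.00348), Gria3 (0.00449) and Grik1 (0.0143). For Gria1, B6 was the highest strain in PrL and NAcc and the lowest in CeA, so the drop from CeA to PrL was -0.16 in B6 and -0.47 to -0.95 in the other 7 strains. For Gria3, WSB led in CeA and PrL, and B6 in NAcc. PWK had the lowest Grik3 of all strains in CeA and the highest in NAcc. Of these first and last places, only that of B6 for Gria1 in PrL was called against its neighbour. The F test over strains (limma) was not called for Gria1 in CeA (adjusted p = 0.521). Nor was it called in NAcc for Gria3 (0.1135) or Grik3 (0.186). Without the 17 libraries Gria1, Gria3 and Grik3 stayed called, and Grik1 (adjusted p = 0.0905) and Grik5 (adjusted p = 0.0603) did not.

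The comparison with Low_Average asks which subunits part the strains that prefer ethanol from the rest. No member was higher in B6 than in Low_Average in CeA or NAcc, beside 22.3% and 17.3% of all genes, and 2 were lower in each, beside 18.8% and 14.9%. In CeA these were Gria3 (-0.32, SE 0.12, adjusted p = 0.0296) and Grik5 (-0.24, SE 0.06, adjusted p = 0.0026), and in NAcc Grik1 (-1.13, SE 0.45, adjusted p = 0.0455) and Grik4 (-0.57, SE 0.14, adjusted p = 0.00129). In PrL 2 were higher and 2 lower in B6, beside 18.2% and 19.3% of all genes. Gria1 (0.43, SE 0.05, adjusted p = 8.07e-09) and Grik2 (0.165, SE 0.05, adjusted p = 0.0054) were higher, and Gria4 (-0.20, SE 0.06, adjusted p = 0.00683) and Grik4 (-0.47, SE 0.12, adjusted p = 0.00163) lower.

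PWK was lower than Low_Average in CeA for 3 members and higher for none, beside 19.1% and 20.1% of all genes. They were Grik3 (-0.45, SE 0.12, adjusted p = 0.00204), Gria3 (-0.38, SE 0.12, adjusted p = 0.0104) and Grik5 (-0.22, SE 0.06, adjusted p = 0.00612). In NAcc no member was called in either direction, beside 20.0% and 18.7% of all genes. The 2 contrasts called in NAcc, both of B6, became 9 over B6 and PWK with the marker covariates and 1 with the library that the authors left out. In PrL 2 were higher, beside 23.9% of all genes, and none lower, beside 23.2%: Gria1 (0.15, SE 0.05, adjusted p = 0.0196) and Grik2 (0.12, SE 0.05, adjusted p = 0.0376). By strain mean, CAST, a low strain, stood between B6 and PWK in PrL for both genes. The pair of CAST and PWK was not called (limma, adjusted p = 0.3777 for Gria1 and 0.9707 for Grik2). For Grik2, B6 differed from 4, CAST from 3 and PWK from 2 of the other 7 strains. Neither gene thus set B6 and PWK apart from all 6 low strains. The B6 and PWK comparisons share the libraries of the 6 low strains.

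Cell type markers moved in the same contrasts. Each list with at least 2 markers called in 1 direction is given here, and some of those with 1 call. In CeA of B6 both tested oligodendrocyte markers (median log2 difference 1.505), 2 of 3 thalamic and hypothalamic markers (0.67), 3 of 5 astrocyte markers (0.47) and all 3 endothelial markers (0.38) were higher than in Low_Average, and 1 of 4 glutamatergic markers was lower (median -1.26). In NAcc of B6, 2 of 4 glutamatergic markers (median 1.865), 2 of 3 endothelial markers (0.22) and 1 of 5 striatal markers (0.79) were higher. Lower there were 2 of 5 central amygdala markers (-1.465), 2 of 3 markers of oligodendrocyte precursors (-0.35) and 2 of 5 astrocyte markers (-0.06). So was 1 of 3 markers of GABA neurons (-0.19). In PrL of B6, 3 of 4 glutamatergic markers (median -0.36) and 3 of 5 interneuron markers (-0.23) were lower. Higher there were 1 of 5 striatal markers (0.42) and 1 of 2 oligodendrocyte markers (0.69). Of the 5 central amygdala markers, 2 were higher and 1 lower (0.41). In PWK, 3 of 5 astrocyte and 2 of 3 endothelial markers were higher in CeA (medians 0.36 and 0.25). In NAcc of PWK 3 of 5 astrocyte markers were higher (0.25) and 2 of 4 microglial markers lower (-0.30). In PrL of PWK 2 of 5 striatal markers (0.74) and 2 of 3 endothelial markers (0.21) were higher. Of 4 microglial markers 1 was higher and 2 lower there (-0.05). With the marker means as covariates, 7 contrasts of members were called against Low_Average in CeA, 9 in NAcc and 6 in PrL. Those counts stood in place of 5, 2 and 6. Shares of all genes in that fit are not given, so a rise over all genes cannot be told from one of the members. The part of the markers in the calls was not tested beyond these counts and the values without the 17 libraries.

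Leaving out the 17 libraries ended the calls of Gria4 (-0.09, adjusted p = 0.218) and Grik4 (-0.10, adjusted p = 0.276) for B6 in PrL, of Gria3 (-0.23, adjusted p = 0.12) for B6 in CeA and of Grik1 (-1.45, adjusted p = 0.0905) for B6 in NAcc. Gria1 in B6 (0.35, adjusted p = 1.61e-06) and in PWK (0.24) and Grik2 in B6 (0.20) and in PWK (0.15) stayed called in PrL. Grik4 for B6 in NAcc (-0.67, adjusted p = 0.0052), Grik5 for B6 in CeA (-0.18, adjusted p = 0.0273) and the 3 PWK calls in CeA stayed too. Grik3 for B6 in NAcc (-0.28, adjusted p = 0.0153) and Gria3 for PWK in PrL (0.16, adjusted p = 0.0358) were called without the 17 libraries and not with them.

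Sex made no called difference in any member in any region, beside 0.135%, 0.0812% and 0.0947% of all genes called in CeA, NAcc and PrL. The count was 0 by limma, edgeR and DESeq2. At an unadjusted p under 0.05 (limma) there was 1 member in CeA, none in NAcc and 1 in PrL. That in CeA was Grik1, with a mean of 26.3 CPM in males and 19.5 CPM in females (log2 difference 0.42, SE 0.12, adjusted p = 0.264), and that in PrL was Gria4, with 121 CPM in males and 128 CPM in females (-0.08, SE 0.04, adjusted p = 0.634).

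The auxiliary and partner genes were counted among strains too. In CeA, NAcc and PrL, beside 80.8%, 76.0% and 84.1% of all genes, the F test called 9, 10 and 14 of the 17 AMPA auxiliary genes, 3, 3 and 4 of the 6 kainate partners, 8, 10 and 12 of the 13 anchoring, trafficking and editing genes, and 7, 6 and 6 of the 8 NMDA and delta subunits. After the mean of each region was subtracted from the 24 group means, the gene most like Grik1 was Adcy6 (Pearson r 0.936), that most like Gria2 Prickle2 (0.927), that most like Gria3 Dlg3 (0.880) and that most like Grik4 Rims3 (0.841). The 3 most like Gria1 were Ppp1r12b (0.799), Ints10 (0.777) and Cnih2 (0.762), the last an AMPA receptor auxiliary subunit. For the other members the most alike were Nf1 (Gria4, 0.850), Rarb (Grik2, 0.918), Uimc1 (Grik3, 0.672) and Cyp46a1 (Grik5, 0.902). These values too are descriptions over 24 means.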

How the data were processed

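RNA-seq libraries of 3 regions of 48 mice were grouped by the strain, region, sex, mouse and sequencing tray in the labels. As the submitters' processing notes and the methods state, the authors prepared stranded poly(A) libraries, trimmed reads with Trimmomatic, aligned them with STAR 2.7.3a to GRCm39 (Ensembl annotation; the series text also names mm10) and deposited gene counts for 240 libraries. The labels mark trays 2 and 3 as sequenced again, whereas the methods speak of a single batch. They also deposited log2 CPM of 143 libraries and 14785 genes, made with edgeR 3.38.1 and limma 3.52.2. The authors' filter kept genes above a low mean CPM and below a high count; marker genes that it removed were read from the counts. The level of 1 marker gene is not reported here. The log2 values were recomputed from the counts to within 5e-06. Every strain was aligned to 1 reference, and whether sequence differences between strains affected the counts was not tested.

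The counts were scaled by TMM (edgeR 4.0.16) and fitted by limma 3.58.1 with voom, with strain, sex and tray as terms in each region. The 28 strain contrasts were adjusted together, as were B6 and PWK against Low_Average, at a false discovery rate of 0.05. All regions were fitted together for region contrasts and for strain by region. Labels say that each mouse gave its 3 regions; deviations from group means of the same mouse correlated with a median r of -0.006 to 0.062. Mice are separate animals. Lengths came from GENCODE M21 by gene identifier. The 9 members, the pathway lists and the marker lists were chosen with earlier results of these data known. Apart from markers, named genes were the members and the gene with the largest absolute difference in each list and contrast. Some of the 3 genes most like each member and the editing enzymes Adarb1 and Adar were named too. Cacng4, Shisa7, Ap2m1 and the strain pattern of Arc were picked after their values were seen. Alternatives included edgeR's and DESeq2's (1.42.0) tests, other scaling, no filter, no tray term, fits within trays, summed runs, 144 libraries, marker covariates, a mouse block and left-out libraries. The fits were tested on simulated data. R 4.3.3, Python 3.11.15 and matplotlib 3.10.9 were used.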

Additional observations from a re-analysis of the deposited data

Results flagged for a closer look

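In 12 of 216 groups of strain, region and gene, 1 library stood apart from the others of its group by Dixon's criterion, where chance gives about 1 in 20. In NAcc these were Gria2 in AJ (lowest library 409 CPM), Gria3 in PWK (highest 342 CPM, from mouse 48, whose NAcc library held 1386 CPM of glutamatergic markers), Gria4 in AJ (highest 131 CPM), Grik1 in B6 (highest 15.98 CPM, from mouse 25) and in NOD (lowest 11.66 CPM, from mouse 47), Grik3 in NZO (lowest 157.8 CPM) and in CAST (highest 214.8 CPM), and Grik5 in WSB (highest 291.1 CPM) and in CAST (lowest 236.4 CPM). In CeA it was Grik3 in WSB (highest 323 CPM). In PrL they were Gria4 (highest 122.2 CPM) and Grik3 (lowest 161.9 CPM) in S129.

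The strain differences varied between regions by the test of strain against region for Gria1 (adjusted p = 0.000843), Gria3 (0.00449), Grik1 (0.0143), Grik3 (0.0031) and Grik5 (0.00348), from limma over 24 groups.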

How the results depend on the processing

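Regional directions of Gria1, Gria3, Grik2 and Grik3 held under all 20 alternatives run for them. Reversed values were those of Gria2 in tray 3 alone (CeA-NAcc -0.09521, PrL-CeA 0.03247) and of Gria2 PrL-NAcc in tray 3 alone (-0.06274) and with marker covariates (-0.01996), of Gria4 with marker covariates (CeA-NAcc -0.07509, PrL-CeA -0.1672, PrL-NAcc -0.2423), of Grik1 with marker covariates (CeA-NAcc -0.4007, PrL-NAcc -1.317), of Grik4 CeA-NAcc (-0.173 with marker covariates, -0.00473 with 144 libraries, -0.2842 in tray 1) and of Grik5 for PrL-CeA in tray 1 (-0.007232). The marker means differ between regions, so these covariates take up regional difference by construction.

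Fits within trays 1, 2 and 3 hold fewer samples, and called 0, 7 and 1 strain pairs in CeA, 0 each in NAcc and 8, 5 and 9 in PrL; F tests 0, 1 and 0 in CeA, 0 each in NAcc and 1 each in PrL; contrasts with Low_Average 0, 0 and 2 in CeA, 0 each in NAcc and 1, 1 and 2 in PrL; 0 unique members and 0 strain by region differences each, and 13 regional differences in tray 3. Marker covariates called 69 pairs, 7 F tests and 9 Low_Average contrasts in NAcc, and 1 unique member in each region (Gria4 higher in CAST in CeA and NAcc, Grik1 higher in NZO in PrL). With 144 libraries there were 10 pairs, 1 F test and 1 Low_Average contrast in NAcc and 3 strain by region differences. With no filter there were 15 pairs and 1 Low_Average contrast in NAcc, and with adjustment within each contrast 1 such contrast. With no filter, and by the edgeR and DESeq2 tests, Grik4 was not unique to B6 in PrL. DESeq2 called 1 member unique in CeA (Grik1 lower in AJ). Without the B6 PrL libraries of mice 25 and 33 there was 1 unique member in PrL (Grik1 in NZO). Without the 17 libraries there was 1 F test in NAcc, 0 unique members in PrL and 3 strain by region differences. The cause was not tested. Leaving out each B6 NAcc library in turn gave 18 to 26 pairs, 3 to 4 F tests, 1 to 2 Low_Average contrasts and 0 to 1 unique members in NAcc (Grik4 lower in B6 without mouse 25), 20 to 21 regional differences and 5 strain by region differences. By coding length Gria2 made up 34.31%, 39.58% and 37.9% of the AMPA subunits in CeA, NAcc and PrL.

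With the mouse as a replicate block (consensus correlation 0.0476) the 20 regional and 5 strain by region calls were unchanged in number. The lowest single count of a member was 46, for Grik1 in NAcc, and the part of counting error in its scatter was not tested.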

Other observations

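Among the partner genes, Arc, an immediate early gene that drives AMPA receptor removal, stood out in WSB; it and the next genes were picked after their values were seen. In PrL it was 267 to 812 CPM in WSB (median 307) and 32.5 to 196 CPM in the other strains (median 67.8), with no overlap and a weakest adjusted p of 8.18e-05 (limma). In CeA it was 70.1 to 164 CPM in WSB and 29.7 to 81.1 CPM in the others, overlapping at the edge (weakest adjusted p 0.000387). In NAcc the F test over strains called Arc (adjusted p = 0.01) but it was unique to no strain. Without the 17 libraries with unusual markers the PrL ranges were 267 to 430.3 CPM and 34.5 to 196 CPM.

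PWK had the highest Shisa7, an AMPA receptor auxiliary subunit, in PrL, at 290.0 to 360.1 CPM against 164 to 236 CPM in the other strains (weakest adjusted p 7.12e-12). It had the lowest Ap2m1, the adaptor subunit that takes AMPA receptors into clathrin-coated pits, in all 3 regions by strain mean, with overlapping ranges in 2 of them. In NAcc Ap2m1 was 256 to 363.5 CPM in PWK and 333 to 429 CPM in the others (weakest adjusted p 0.0431), and in CeA 318 to 367 CPM and 364.5 to 549 CPM (weakest adjusted p 0.00558). These ranges did not overlap without the 17 libraries, at 256 to 304 CPM (3 PWK libraries) and 333 to 429 CPM in NAcc, and 328 to 367 CPM and 371 to 549 CPM in CeA. In PrL it was 351 to 452 CPM in PWK and 454 to 637 CPM in the others (weakest adjusted p 2.96e-05), and without the 17 libraries 389 to 452 CPM and 454 to 637 CPM.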
